A study of Mus musculus with 6 samples.

Results

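HOX genes encode homeodomain transcription factors that lie in 4 chromosomal clusters and give cells their position along the body axis. They were taken here as every row of the deposited gene table named Hoxa, Hoxb, Hoxc or Hoxd followed by a number alone. This found 31 genes of 21627. The mouse has 39 known HOX genes, and those without a row enter no number, cluster or span given here. The table held 0 rows without a count in any library. The Hoxa cluster on chromosome 6 gave 9 of them, Hoxb on chromosome 11 and Hoxc on chromosome 15 gave 8 each, and Hoxd on chromosome 2 gave 6. In mm10 the Hoxb, Hoxc and Hoxd members span chr11:96271457-96354012, chr15:102921103-103036852 and chr2:74679557-74765142 (plus strand), or 82.6, 115.8 and 85.6 kb, and the Hoxa members lie on the minus strand. RNA was sequenced from organoids grown from mammary epithelial cells of female FVB/N mice, 8 to 12 weeks old, of the MIC line, in which doxycycline induces the polyomavirus middle T oncogene. One group carried conditional Ezh2 alleles (fl/fl), which doxycycline deletes (Ezh2 knockout, KO), and the other had wild-type Ezh2 (WT), with 3 libraries each. From about 10000 plated cells acini grew for 6 days, after which all 6 cultures received doxycycline at 2 µg/ml for 8 days with new medium every 48 hours, so the oncogene was induced in both groups. The labels name neither the deleted exons nor the animals or cultures behind each library, so the spread behind each p-value is that between libraries and may be technical.

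Within a cluster the genes stand in the order in which they act from head to tail. Low paralog numbers pattern the hindbrain and neck, and high numbers the lower trunk and limbs. Ezh2 is the catalytic subunit of Polycomb repressive complex 2 (PRC2), which places the histone mark H3K27me3, and HOX clusters are among the best-known carriers of that mark where they are silent. In the mouse mammary gland the paralogs Hoxa9, Hoxb9 and Hoxd9 are together needed for normal growth of the gland in pregnancy.

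No HOX gene passed the test in either direction, and 6 members had at most 3 counts summed over all libraries of either group. Of the 31 genes 21 had enough reads to test (edgeR's quasi-likelihood test over 14196 genes, Benjamini-Hochberg adjustment, threshold 0.05), and 0 were higher and 0 lower in KO organoids, against 0% of all genes tested. The smallest adjusted p of a HOX gene was 0.228 in edgeR and 0.191 in DESeq2, which called 0 of the 17 HOX genes to which it gave an adjusted p, against 7.67% of all genes (4.13% higher and 3.53% lower). At an unadjusted p under 0.05 either tool held 1 HOX gene, Hoxa9, against 19.8% of all genes in edgeR (8.93% higher and 10.9% lower) and 20.5% in DESeq2. Shares over all genes are not matched to the mostly low expression of the HOX genes. The authors' deposited table had an adjusted p for 20 HOX genes, of which 0 were past 0.05, where 6.18% of all genes were.

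Ezh2 itself was lower in every KO library, at 7.13, 7.28 and 5.84 CPM (counts scaled to a common library size, here by TMM) in KO and 19.3, 22.6 and 14.7 CPM in WT. Its mean in KO was 35.8% of that in WT, at a log2 fold change of −1.48 ± 0.20 (SE), adjusted p 0.0755 in edgeR and 1.46e-07 in DESeq2, and p = 0.1 in a two-sided exact permutation test, the smallest that 20 arrangements allow. The KO libraries held 27667054 to 29203634 counts and the WT libraries 18292722 to 23437024. Summed fibroblast markers (10 of 10 in the table) were at 10520 to 12090 CPM of library totals in KO libraries and at 3275, 10870 and 15050 in WT replicates 1 to 3. Summed immune markers (9 of 10) were at 163 to 249 in KO libraries and at 157, 1663 and 443 in WT. Luminal markers (10 of 10) lay at 4447 to 4476 in KO and 4617 to 5408 in WT, basal markers (8 of 8) at 420 to 478 in KO and 455 to 514 in WT, and endothelial markers (8 of 8) at 7.23 to 9.05 in KO and 5.80 to 14.1 in WT. Epithelial markers were thus present in every library, as labelled, beside fibroblast markers, and no listed marker in the table was at 0 in all libraries. In such mixed cultures fewer cells of a type and less RNA per cell cannot be told apart, and the part of these cells in the HOX values was not tested. The sums follow the most abundant markers. Of single markers edgeR called 0. DESeq2 called 2 of 8 tested immune and 1 of 10 luminal markers lower and 1 of 8 basal markers, Oxtr, higher. Over all genes it called 3.53% lower and 4.13% higher.

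Promoter windows of 3 members that differ in level are shown, with no relation to the level tested: Hoxb4, the HOX gene with the highest level, Hoxa10, the tested member whose KO libraries all lay below the WT libraries, and Hoxd10, with 1 count in all 6 libraries. Each run is the 250 bases before the gene's start in RefSeq (GRCm38.p6, the assembly of mm10), written on the gene's strand with every CpG, a C followed by a G, in capitals. CpG reads the same on both strands.
Hoxb4, chr11:96318017-96318266, plus strand: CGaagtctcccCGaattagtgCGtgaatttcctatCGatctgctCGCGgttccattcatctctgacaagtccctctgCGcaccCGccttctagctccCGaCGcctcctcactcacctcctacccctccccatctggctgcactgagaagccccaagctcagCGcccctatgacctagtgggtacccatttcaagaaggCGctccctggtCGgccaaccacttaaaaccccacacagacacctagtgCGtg
Hoxa10, chr6:52240855-52241104, minus strand: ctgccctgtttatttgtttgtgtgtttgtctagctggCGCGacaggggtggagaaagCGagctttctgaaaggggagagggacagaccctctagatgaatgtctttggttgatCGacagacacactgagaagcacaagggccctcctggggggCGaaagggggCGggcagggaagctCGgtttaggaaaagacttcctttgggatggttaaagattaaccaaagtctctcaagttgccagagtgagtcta
Hoxd10, chr2:74691641-74691890, plus strand: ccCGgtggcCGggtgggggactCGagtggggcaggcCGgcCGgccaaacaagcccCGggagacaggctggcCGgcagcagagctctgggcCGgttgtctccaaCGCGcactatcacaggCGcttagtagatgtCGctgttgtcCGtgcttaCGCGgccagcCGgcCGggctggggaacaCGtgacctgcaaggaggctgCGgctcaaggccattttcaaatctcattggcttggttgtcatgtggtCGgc
These windows held 14 CpG for Hoxb4, 7 for Hoxa10 and 20 for Hoxd10, so the near-silent gene had more than the most abundant one. Among 32851 RefSeq windows of the same length, 29.4% held at least as many CpG as that of Hoxb4, 46.3% as many as that of Hoxa10 and 17.95% as many as that of Hoxd10. RefSeq windows were found for 16 of the 31 members, with a median of 12 CpG (2 to 28), and the median over all windows was 6. The 10 tested members among them had a median of 10 CpG (3 to 28) and the 4 with at most 3 counts a median of 16 (2 to 24). These ranges overlapped, and Hoxd11, a near-silent member, had the fewest at 2. Some RefSeq starts lay far from the deposited gene start, by 3281 bases for Hoxa7, 3719 for Hoxa9 and 15461 for Hoxc4.

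The level per length, as FPKM (counts scaled by gene length and library total), spanned from Hoxb4 at the top to Hoxd genes listed at 0 in most libraries. Hoxb4, which in blood promotes the expansion of stem cells, had 5.43, 5.97 and 6.25 FPKM in KO libraries and 6.14, 4.25 and 4.67 FPKM in WT libraries, and it took 29.9% of all HOX counts. No other member reached its level in any library. The next were Hoxc8, a gene of thoracic identity, at 2.36 ± 0.490 FPKM in KO and 3.11 ± 0.974 in WT (SD, n = 3 per group), and Hoxc6 at 1.62 ± 0.247 in KO and 2.67 ± 0.888 in WT. Hoxc8 had the higher FPKM of these in all 6 libraries, by little in WT replicates 2 and 3. Hoxb7, Hoxd8 and Hoxb3 completed the 6 members with a mean of at least 1 FPKM over all libraries. A further 18 lay between 0.1 and 1 FPKM, Hoxa2 lay at 0.0799 FPKM, and 6 were below 0.01 FPKM.

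**Figure D1:**
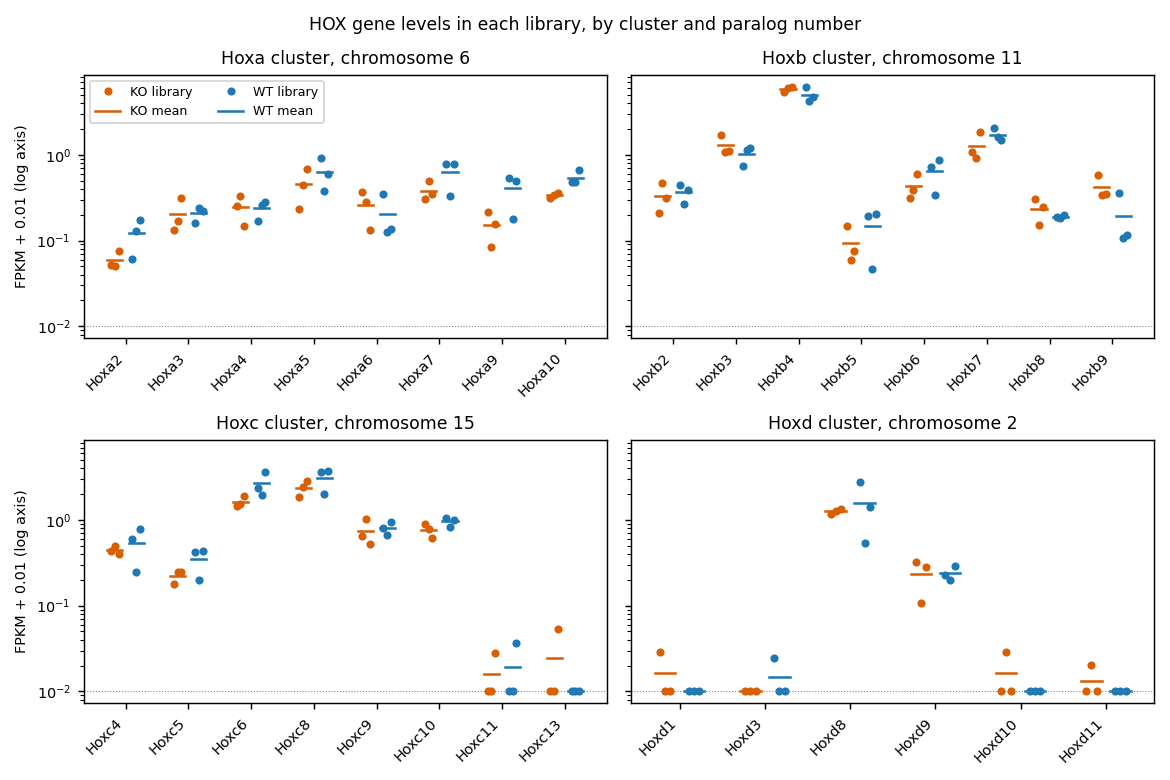
Level of 30 of the 31 HOX genes in each library as FPKM + 0.01 on a log axis, by cluster, with genes in order of paralog number, KO libraries left of WT libraries in each pair and short lines at the group means. Hoxb4 stands highest, and Hoxc11, Hoxc13, Hoxd1, Hoxd3, Hoxd10 and Hoxd11 lie at or near the dotted line that marks 0 FPKM in both groups.

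Reads of all 31 genes together made up 43.0, 44.8 and 48.0 CPM of library totals in KO, against 59.0, 37.0 and 55.2 in WT. The KO libraries lay close together and inside the range of the WT libraries, of which replicate 2 was the lowest of all. The KO mean of 45.27 ± 2.498 was 89.8% of the WT mean of 50.4 ± 11.8 (SD, n = 3 per group). By cluster, Hoxb summed to 24.58 ± 1.121 in KO and 22.0 ± 3.29 in WT, Hoxc to 12.6 ± 1.34 in KO and 16.98 ± 4.833 in WT, Hoxa to 4.33 ± 0.628 in KO and 6.77 ± 1.75 in WT, and Hoxd to 3.80 ± 0.228 in KO and 4.63 ± 3.02 in WT. The groups overlapped in every cluster. By position, the anterior genes (paralogs 1 to 4, 10 members) summed to 21.86, 22.46 and 22.84 in KO and 21.85, 17.31 and 20.50 in WT, with Hoxb4 most of each sum and the lowest KO library level with the highest WT library. The central genes (5 to 8, 11 members) summed to 16.8 ± 2.75 in KO and 23.2 ± 7.90 in WT, and the posterior genes (9 to 13, 10 members) to 6.08 ± 0.731 in KO and 7.34 ± 1.59 in WT.

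**Figure D2:**
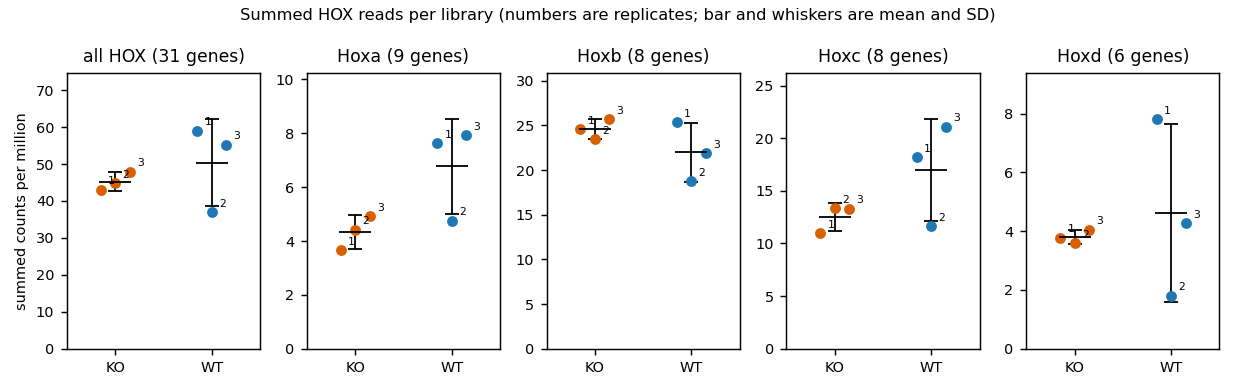
Summed HOX CPM of library totals in each library, for all 31 genes and for each cluster, with KO left of WT, replicate numbers beside the points, and the mean and SD of 3 libraries as bars. The KO libraries at 43.0 to 48.0 lie within the WT range of 37.0 to 59.0 for all genes together, and WT replicate 2 is the lowest WT library in each panel.

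Among the 21 tested members 6 fold changes were positive and 15 negative, with a median log2 fold change of −0.34, where the median over all genes tested was −0.05 and 55.5% were negative. The members that passed the filter are the more abundant ones, so these counts do not describe the other 10. Of the tested members, 15 had a 95% interval with an upper end below a log2 fold change of 1. In 20 it was below 2, the exception being Hoxb9. Most lower ends lay more than 1 log2 unit below no change, the lowest at −2.86 for Hoxa9. The intervals thus bounded a decrease less tightly than an increase. Groups were apart, with no overlap of libraries, for 1 member, Hoxa10, or 4.76% of those tested, against 28.8% of all genes tested. These shares were not matched for expression level, and only 6 of the 31 members reached a mean of 1 FPKM. Whether HOX genes differ in this from other genes of their level was not tested.

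**Figure D3:**
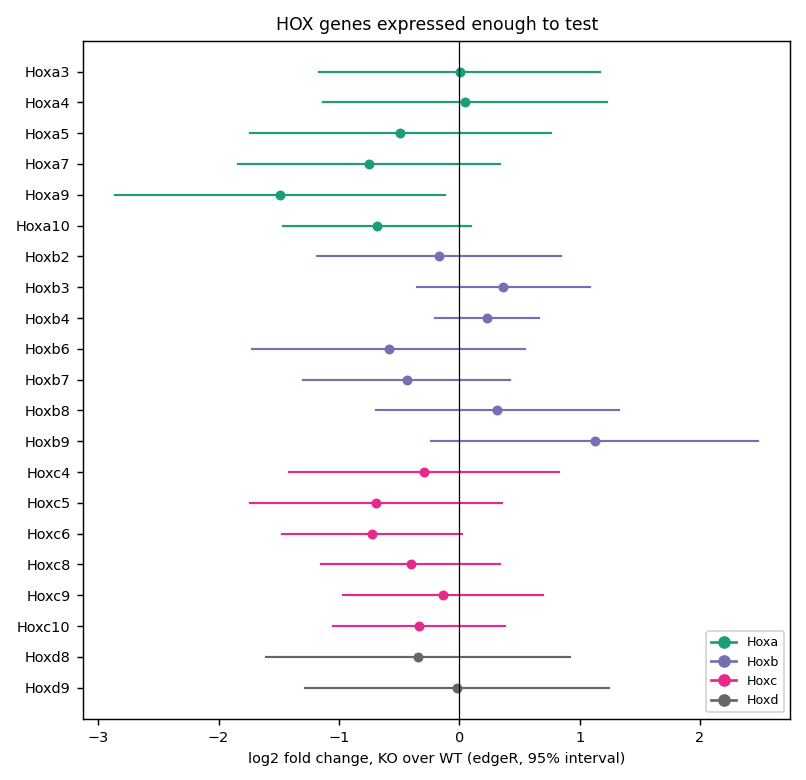
Log2 fold change of KO over WT with its 95% interval from edgeR for the 21 HOX genes expressed enough to test, grouped by cluster, with paralog numbers increasing down each cluster. The interval of Hoxa9 alone does not reach 0, that of Hoxb9 extends furthest up, to 2.48, and all 6 Hoxc estimates are negative.

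In the Hoxa cluster Hoxa7, Hoxa9 and Hoxa10 had lower means in KO organoids, and none passed the test. Hoxa9, a gene of mammary growth and of blood progenitors, had 19, 7 and 13 counts in KO libraries and 40, 11 and 29 in WT libraries, or 0.661, 0.238 and 0.477 CPM in KO, against 1.73, 0.531 and 1.62 in WT. KO replicate 1 stood above WT replicate 2, so the groups overlapped. The log2 fold change was −1.49 ± 0.58 (SE, unadjusted p 0.0370), the adjusted p 0.228 in edgeR and 0.191 in DESeq2, and DESeq2's adjusted p was 0.0340 when WT replicate 2 was left out (−1.86), a fit in which it called 12.2% of all genes. Hoxa10, which acts in the uterus at implantation, had 0.765, 0.850 and 0.918 CPM in KO, against 1.21, 1.16 and 1.73 in WT. Even the highest KO library lay under the lowest WT library (log2 fold change −0.69 ± 0.33, adjusted p 0.298 in edgeR). Hoxa7, a trunk gene, had 0.591, 0.986 and 0.698 CPM in KO, against 1.60, 0.627 and 1.62 in WT, where again WT replicate 2 lay among the KO libraries (−0.75 ± 0.46, adjusted p 0.405 in edgeR).

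Hoxa5, which is needed for lung development and had the highest FPKM of its cluster, had 12, 24 and 35 counts in KO and 40, 14 and 20 in WT. Its libraries spread as widely within groups as between them (−0.49 ± 0.53). Hoxa3, a gene of thymus and parathyroid formation, and Hoxa4 were at log2 fold changes of 0.00 ± 0.50 and 0.04 ± 0.50. The row of Hoxa3 spans those of Hoxa4, Hoxa5 and Hoxa6, and 12 of the 31 members overlap a row on the other strand, so shared reads cannot be assigned with certainty there. No strand-marking step is described in the labels. The Hoxa cluster lies 4.56 Mb from Ezh2 on chromosome 6.

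In the Hoxb cluster the estimates went both ways. Hoxb9, the other mammary paralog of its group, had 42, 25 and 24 counts in KO and 21, 5 and 5 in WT, or 1.46, 0.850 and 0.881 CPM in KO, against 0.908, 0.241 and 0.280 in WT. WT replicate 1 lay among the KO libraries and the other two WT libraries far below them. The log2 fold change was 1.123 ± 0.58 (SE), the adjusted p 0.324 in edgeR and 0.360 in DESeq2. Without WT replicate 1 it was 2.03 ± 0.53 with an adjusted p of 0.0818 in edgeR, and 2.06 with 0.0419 in DESeq2, which then called 14.0% of all genes. Hoxb4 had 13.9, 15.2 and 16.3 CPM in KO, against 15.9, 10.5 and 12.3 in WT, a log2 fold change of 0.23 ± 0.18 and a 95% interval of −0.21 to 0.66, the narrowest of the family. Hoxb3, at 156, 100 and 98 counts in KO and 54, 71 and 70 in WT, was at 0.36 ± 0.31, and Hoxb8, a gene of a microglial lineage, at 0.32 ± 0.43. Hoxb2, which acts in the hindbrain, was at −0.17 ± 0.43, Hoxb6 at −0.59 ± 0.48 and Hoxb7 at −0.44 ± 0.37.

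All 6 tested Hoxc genes had negative estimates and none passed. Hoxc6 had 65, 70 and 83 counts in KO and 88, 62 and 106 in WT, or 2.26, 2.38 and 3.05 CPM in KO, against 3.80, 2.99 and 5.93 in WT. The highest KO library just exceeded the lowest WT library, and the log2 fold change was −0.72 ± 0.32 (SE, adjusted p 0.266 in edgeR and 0.237 in DESeq2). Hoxc8 had 4.07, 5.34 and 6.35 CPM in KO, against 8.21, 4.25 and 8.39 in WT. WT replicates 1 and 3 lay above all KO libraries and WT replicate 2 beside the lowest (−0.40 ± 0.32). Hoxc5 had 14, 20 and 19 counts in KO and 28, 11 and 23 in WT (−0.69 ± 0.45), and its row overlaps those of Hoxc6, Hoxc8, Hoxc9 and Hoxc10. Hoxc4 was at −0.29 ± 0.48, Hoxc9, a gene of thoracic motor neurons, at −0.14 ± 0.35, and Hoxc10, which acts at lumbar levels, at −0.34 ± 0.30.

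The Hoxd cluster was expressed from Hoxd8 and Hoxd9 alone at a level that could be tested. Hoxd8 had 88, 97 and 96 counts in KO and 171, 28 and 67 in WT, or 3.06, 3.30 and 3.53 CPM in KO, against 7.39, 1.35 and 3.75 in WT. The KO libraries were nearly level while the WT libraries lay both above and below them, so that the log2 fold change of −0.34 ± 0.54 (SE) turned to 0.40 when WT replicate 1 was left out and was −0.76 when WT replicate 2 was. Hoxd9, the other mammary paralog, had 19, 6 and 16 counts in KO and 11, 8 and 11 in WT, a log2 fold change of −0.02 ± 0.54.

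WT replicate 2 was the lowest WT library for 17 of the 21 tested HOX genes, where it was the lowest for 37.7% of all genes tested. WT replicate 3 was the highest WT library for 12 of them (57.1%) and WT replicate 1 for 8 (38.1%), against 25.4% and 36.9% of all genes tested. WT replicate 2 is also the library with the most immune marker RNA, and WT replicate 1 the one with the least fibroblast marker RNA, at levels given above. The part of either in the HOX values was not tested. In the KO group, replicate 1 was the lowest for 11 members (52.4%) and replicate 3 the highest for 10 (47.6%), against 34.7% and 34.4% of all genes tested. The median SD of log2(CPM + 1) over the tested members was 0.21 in KO and 0.29 in WT, against 0.11 in KO and 0.24 in WT over all genes tested. The sets were not matched for expression level, on which such an SD depends.

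**Figure D4:**
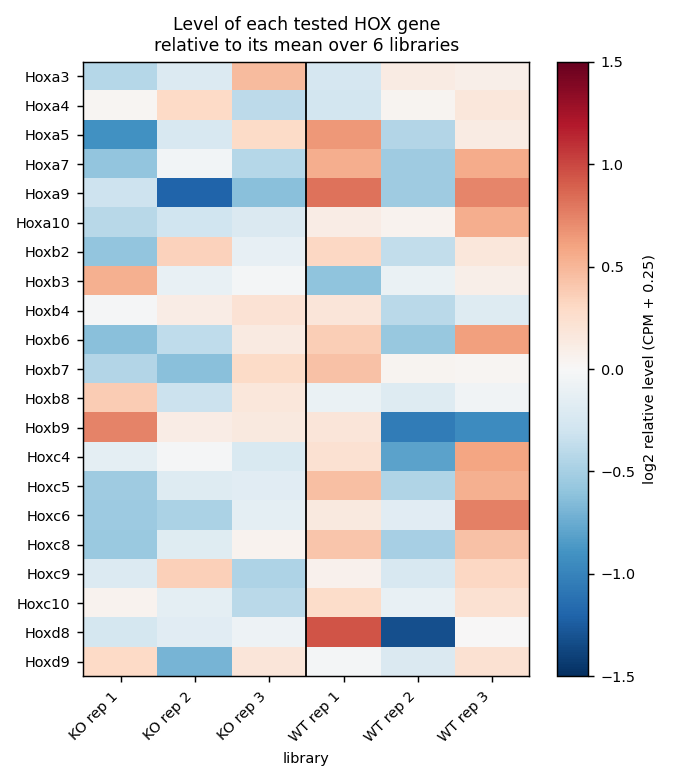
Level of each tested HOX gene in each library relative to its mean over all 6 libraries, as log2 of CPM + 0.25, with KO libraries left of the line and WT libraries right of it. WT replicate 2 is the lowest WT library for 17 of 21 genes, and Hoxb9 stands apart with its lowest values in WT replicates 2 and 3.

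The 10 members that did not reach the expression filter split into 4 with a few counts per library and 6 close to 0. Values are given for 3 of those 4. Hoxb5 had 11, 4 and 5 counts in KO and 12, 2 and 10 in WT, a KO over WT ratio of 0.601 for the summed rates (95% counting interval 0.315 to 1.14), and Hoxa2, which gives the second pharyngeal arch its identity, had 2, 2 and 3 in KO and 2, 4 and 5 in WT (0.459, 0.151 to 1.30). Hoxa6 had 9, 7 and 3 counts in KO and 7, 2 and 2 in WT (1.25, 0.564 to 2.90). Each of these intervals, which cover counting error only since PCR reads without molecular identifiers are not independent molecules, includes a ratio of 1.

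The other 6 members held 7 of 85503349 counts over the KO group, against 2 of 61712761 over the WT group. Hoxc13, a gene of hair follicles, had 3 counts in KO replicate 3 and 0 elsewhere, and Hoxd1, Hoxd10, a gene of lumbar motor neurons, and Hoxd11, a limb gene, had 1 count each in a single KO library. Hoxc11 had 1 count in a library of each group, and Hoxd3 had 0 counts in KO and 1 in WT. A count of 0 over the 3 libraries of a group allows up to 0.0351 CPM in KO and 0.0486 CPM in WT (3 counts of the total). The largest rate that the KO counts of these members allow, the exact 95% upper limit for Hoxc13, was 0.103 CPM. No fold is given for them because both groups were at or under the level that a count of 0 allows. The number of HOX genes with at least 1 count was 26 to 27 in KO and 25 to 26 in WT libraries, and 26 in each KO library and 25 to 26 in WT after all libraries were thinned to the smallest.

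Other transcripts inside the clusters, taken as the spans of the listed members, were rare. Of 11 such rows 1 could be tested, Hotairm1, an antisense RNA of the Hoxa cluster, with 18, 20 and 38 counts in KO and 42, 28 and 22 in WT (log2 fold change −0.71 ± 0.42 (SE), adjusted p 0.392 in edgeR). It overlaps a HOX row on the other strand. Hoxb3os held 18 counts in KO and 11 in WT, and Hoxb5os, Hoxd3os1, Hoxaas2 and Hoxaas3 each held at most 5 in either group.

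Within 500 kb outside the spans of the listed members 36 of 63 rows were tested. Of these 0 passed in edgeR and 4 in DESeq2 (1 higher and 3 lower). HOX genes without a row may lie beyond a span, so some of these rows may lie inside the full cluster. Over all genes DESeq2 called 7.67% (4.13% higher and 3.53% lower). It gave no adjusted p to some of the tested rows, Gm53 among them. B4galnt2, which encodes a glycosyltransferase and lies 357 kb beside Hoxb, averaged 95.9 ± 12.6 CPM in KO and 39.2 ± 7.86 in WT (SD, n = 3 per group), and its log2 fold change was 1.29 ± 0.18 (adjusted p 0.0755 in edgeR and 1.22e-07 in DESeq2). Every KO library lay above every WT library. Gm53, 6.59 kb beyond Hoxb9, the outermost listed Hoxb gene on that side, had 26, 16 and 25 counts in KO and 2, 6 and 7 in WT. All its KO libraries lay above all WT libraries (1.64 ± 0.57 (SE), adjusted p 0.192 in edgeR, none given by DESeq2). Beside Hoxc, Atp5g2 (−0.68 ± 0.12), Zfp385a (−0.65 ± 0.17) and Pcbp2 (−0.40 ± 0.10) were lower in DESeq2 with adjusted p-values of 0.000343, 0.0239 and 0.0224.

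HOX proteins bind DNA together with TALE homeodomain partners such as the MEIS proteins. Of 11 listed genes 10 were tested, with 0 calls in edgeR and 2 higher in DESeq2, against 4.13% of all genes higher in DESeq2. Of these 2 genes, Meis1 averaged 8.76 ± 0.972 CPM in KO and 5.45 ± 0.752 in WT (SD, n = 3 per group), with a log2 fold change of 0.68 ± 0.20 (SE) and adjusted p-values of 0.144 in edgeR and 0.0353 in DESeq2. All 3 KO libraries lay above every WT library. The related repressor genes Tgif1 and Tgif2 were at −0.64 ± 0.25 and 0.84 ± 0.42 and passed in neither tool. Retinoic acid, which activates anterior HOX genes in the embryo, was covered by 18 genes, of which 15 were tested and 0 passed in edgeR. DESeq2 called 3 of them higher and 1 lower, against 4.13% higher and 3.53% lower of all genes. Those called were Cyp26b1, which degrades retinoic acid (1.71 ± 0.36), Aldh1a2, which makes it (2.83 ± 0.71, from 94 counts in KO and 9 in WT), the receptor gene Rxra (0.47 ± 0.13) and, lower, the retinal reductase gene Dhrs3 (−0.56 ± 0.10). Of 25 chromatin regulators of HOX transcription all were tested and 0 passed in edgeR or DESeq2, against 0% and 7.67% of all genes. Among them were the PRC2 subunit gene Eed at −0.38 ± 0.11, the methyltransferase gene Kmt2d at 0.41 ± 0.15, Wdr5, a subunit of its complex, at −0.27 ± 0.11 and the PRC1 subunit gene Bmi1 at 0.25 ± 0.11.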

How the data were processed

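The deposited table held raw read counts per gene, in whole numbers, and FPKM values that the authors gave beside them, which equal the count over gene length over the library total. Per the submitters' processing notes CASAVA, STAR and the build mm10 were used; no counting tool is given in the sources used here. The authors also deposited a signal per group (mean normalized count, not used here), a log2 fold change (not used here) and p-values of their own test. Gene length, in another column deposited by the authors, was used in FPKM.

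The count test over all genes was edgeR 4.0.16 under R 4.3.3 (with TMM, minimum count 10 and minimum total 15, robust quasi-likelihood F test). Alternatives were DESeq2 1.42.0, other scalings, filters and dispersions, a replicate block, thinning, and each library left out; DESeq2 with a library left out was added after seeing the data. The fits were also run on simulated counts with the same dispersion for every gene in both groups, so without the wider spread of the WT libraries. Identifiers of all 31 members matched GENCODE M21. Every member but 1 is named, and that gene and 1 gene of the other lists are not reported here; values per library are given for the 8 smallest edgeR p-values and the highest FPKM of each cluster, and other lists by up to 4 members with the smallest p. Members and lists were chosen with earlier results of these data known. Intervals from counts cover counting error only, at the depth of 18292722 to 29203634 counts per library.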

Additional observations from a re-analysis of the deposited data

How the results depend on the processing

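No HOX gene was called in edgeR under any alternative, and the median log2 fold change of the tested members stayed negative, from −0.51 to −0.15 with single libraries left out (−0.51 without WT replicate 2 and −0.15 without WT replicate 1). DESeq2 with a library left out gave a HOX median of −0.50 to −0.14, 1 HOX gene higher (Hoxb9, without WT replicate 1, where 14% of all genes were called) and 1 lower (Hoxa9, without WT replicate 2, where 12.2% were). All genes called numbered 0 in edgeR, 1046 in DESeq2, 131 with no filter on low counts, 374 at an adjusted p under 0.10, 0 to 216 with a library left out in edgeR (38 without WT replicate 1, 216 without WT replicate 2), and, in DESeq2, 284, 366 and 323 without KO replicates 1 to 3 and 1977, 1671 and 1359 without WT replicates 1 to 3. The lists beside HOX, without the cell type markers, held 0 calls in edgeR and 10 in DESeq2. They held 1 with no filter and 4 at the looser threshold. With a library left out they held 0 to 2 in edgeR and 3, 4, 3, 18, 12 and 11 in DESeq2, in the same order of libraries. Ezh2 passed in DESeq2 (−1.47), with no filter (−1.46) and without WT replicate 2 (−1.33), and ran from −1.63 to −1.33 with a library left out. The summed HOX reads, as log2 of KO over WT, were −0.15 and ran from −0.33 to −0.03 with a library left out. On library totals 2 HOX genes rather than 1 had groups that did not overlap.

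Of the 21 tested members 14 kept the sign of their fold change under the alternatives run. Those with a change of sign, none past the threshold, were Hoxa3 (−0.048 with upper-quartile scaling, −0.076 with the replicate block, −0.48 to 0.26 with a library left out), Hoxd9 (0.0029 with no filter, −0.31 to 0.35), Hoxb2 (−0.51 to 0.081), Hoxc9 (−0.44 to 0.049), Hoxa4 (−0.14 to 0.30), Hoxd8 (−0.76 to 0.40) and Hoxc4 (−0.66 to 0.082). The cause was not tested. The replicate block gave 0 calls and a HOX median of −0.21. Libraries with the same number deviated from their group means with correlations of −0.07, 0.25 and 0.08, and not every library correlated best with its own number, so the numbers were not taken as pairs. Members under the filter on low counts are given by their counts alone.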
